A study of Mus musculus with 2 samples.

Results

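The genes described here encode the coats, cargo receptors, SNARE proteins and tethers that carry proteins between the endoplasmic reticulum (ER) and the Golgi apparatus. They were taken by gene symbol from a list of 45 genes, out of 12393 genes named by the array's annotation. Of the 45, 43 were represented by at least 1 probe set (a group of short oligonucleotides for 1 transcript) that lists no other gene, and all 43 were above the signal floor in both libraries. Sec24a was named by no probe set of the annotation used here, and Tmed2 shared each of its probe sets with another gene. The listed genes were sorted by function into 11 of the COPII coat, 9 of the COPI coat with its ARF GTPases, 16 cargo receptors and 9 SNAREs and tethers. Genes, classes and limits were chosen with earlier results of these data known, so the counts below are a description and no independent support.

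Pancreatic islets were collected 2 days after birth from wild-type mice and from mice lacking PERK, the ER kinase encoded by Eif2ak3, and each genotype was hybridised to 1 Affymetrix mouse 430A array. Strains and sexes were mixed in the wild type, per its label, and are not stated for the knockout. Neither the deleted exons nor the number of pups behind each array is given in the sources used here. With 1 array per genotype no test between genotypes was possible, so each ratio compares these 2 libraries and no p-value is given.

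Secretory proteins leave the ER in vesicles coated by COPII, in which the GTPase SAR1 recruits the inner coat of SEC23 and SEC24 and then the outer cage of SEC13 and SEC31. COPI vesicles, built from coatomer on the GTPase ARF1, bring escaped ER residents and recycling receptors back from the Golgi. Cargo receptors link soluble cargo to the coats, tethers capture incoming vesicles and SNAREs fuse them. Islet endocrine cells are professional secretory cells in which proinsulin and the other prohormones take this route, and PERK limits the load on it by reducing translation when unfolded protein accumulates in the ER.

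Signals are array intensities in arbitrary units. They were compared between the libraries within a probe set and never between genes. A ratio is log2 of the knockout over the wild-type signal, equality is a ratio of 0, and a gene counted as measured when both signals exceeded the floor of 39.8. Each gene took its value from the probe set with the highest mean signal, called its leading probe set below. The only measure of error is the disagreement between the 2 brightest probe sets of a gene, an SD of 0.26 per probe set on the log2 scale over 2597 genes, which leaves out any difference between animals, litters or RNA preparations. A difference of 1.2-fold, 0.26 on the log2 scale, was used as the limit for counting a gene.

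Most of these transport genes had somewhat less signal in the knockout library, but the median of the second probe sets, available for 18 of them, did not share that shift. On the leading probe sets, 35 of 43 genes were below equality, against 45.1% of all 8133 measured genes. At least 1.2-fold lower were 18 of the 43, against 14.6% of all measured genes, and 0 of the 43 were at least 1.2-fold higher, against 21.2%. The median ratio was -0.22 (1.17-fold lower), with quartiles of -0.39 and -0.05, and that of all measured genes was 0.03. Of the 43 genes, 0 reached 2-fold in either direction. Such differences were rare among all measured genes too (0.652% lower and 0.516% higher), so this count is not particular to the transport genes. The ratios ran from -0.66 for Sec22b to 0.16 for Sec24b, and their SD was 0.21, against 0.33 over all measured genes.

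**Figure D1:**
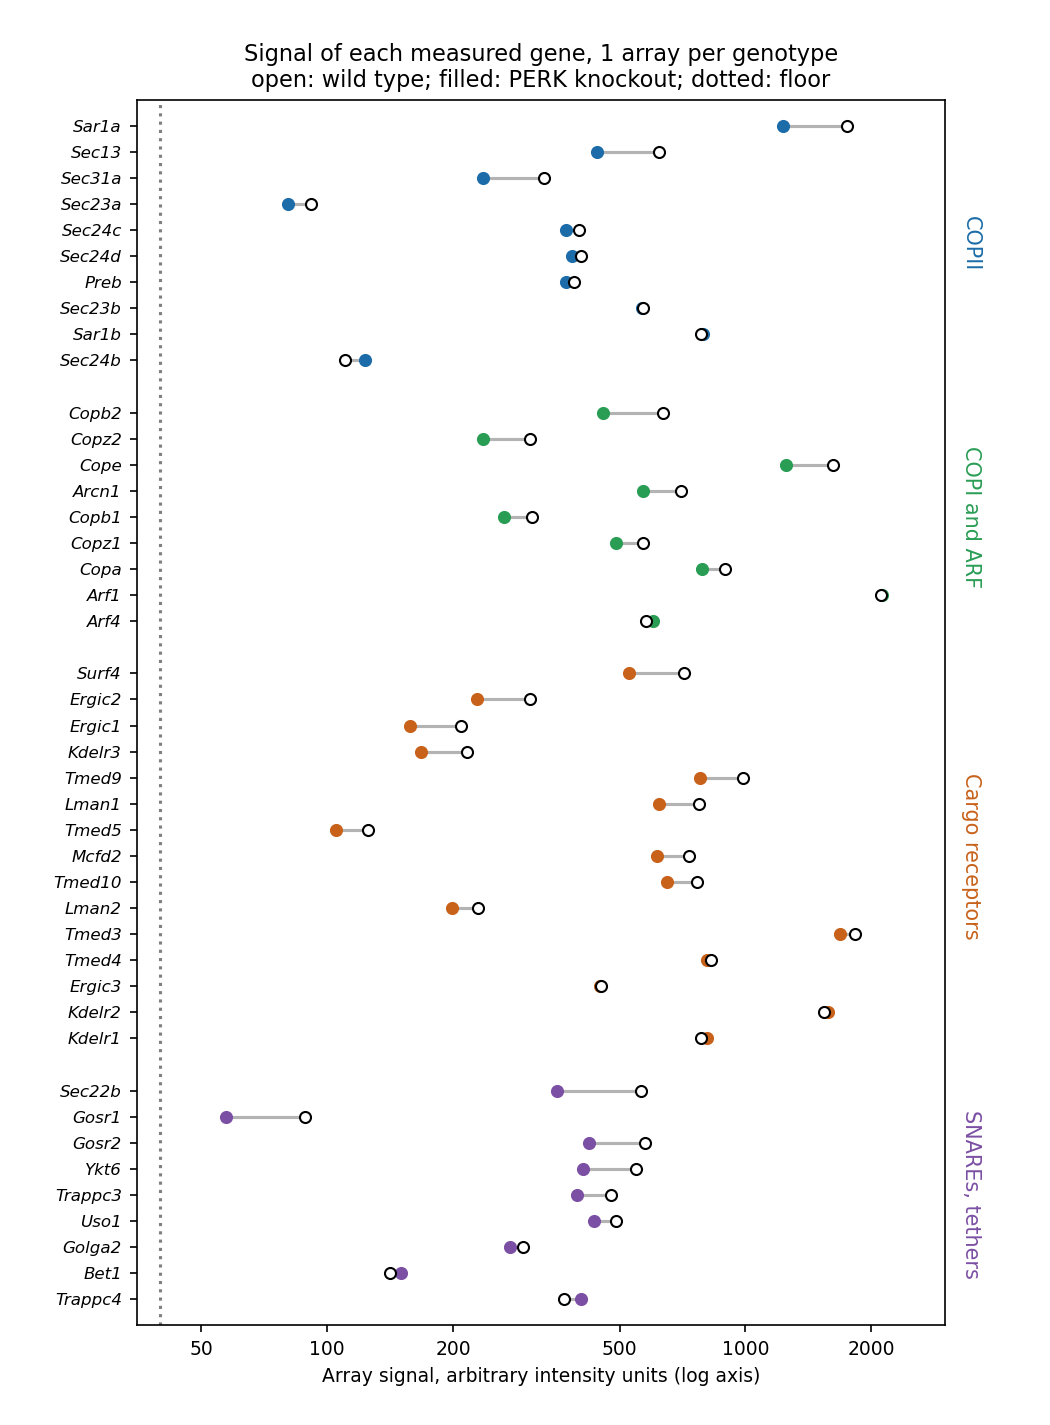
Signal of each of the 43 measured genes on its leading probe set (log axis, arbitrary intensity units), grouped by class and sorted by ratio, with 1 array per genotype. Open circles are wild type, filled circles PERK knockout and the dotted line is the floor of 39.8; the filled circle lies to the left of the open one for 35 genes, and all circles lie above the floor.

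The share of genes below equality also varied with signal. Among the 1554 other measured genes whose mean signal lay between 283.5 and 703.2, the quartiles of the transport genes, 52.0% were below equality, 14.4% were at least 1.2-fold lower and 13.3% were at least 1.2-fold higher. The median ratio of those genes was -0.01.

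The second probe sets gave another picture. Of the 43 genes, 18 had a second measured probe set, and 8 of these 18 were below equality on it, against 44.6% of all 2597 genes with one. The median of the second probe sets was 0.03, whereas the leading probe sets of the same 18 genes had a median of -0.31 with 14 below equality. On the second probe sets 5 of the 18 (27.8%) were at least 1.2-fold lower, against 15.1% of all genes with one. At least 1.2-fold higher were 3, against 22.4%. Leading and second probe sets were both below equality for 7 genes and both above it for 3, and they disagreed in direction for 8. Of 10 genes at least 1.2-fold lower on the leading probe set, 2 (Sar1a and Lman1) were so on the second as well. Over all 27 other measured probe sets of these genes, 13 (48.1%) were below equality, against 44.2% of 3760 for all genes. Their median was 0.01. At least 1.2-fold lower were 8 (29.6%), against 15.2%, and at least 1.2-fold higher were 4, against 852 of the 3760. The second probe sets were also divided by signal, at a limit of 100 chosen after the values were seen. Where the second probe set had a signal of at least 100 in both libraries, 7 of 12 were below equality (49.0% of all such second probe sets), with a median of -0.06. Where it was dimmer, 1 of 6 was below equality (39.7%). On the leading probe sets of the same genes, 9 of the 12 and 5 of the 6 were below equality. With so few genes, a dependence on signal was not tested. The remaining 25 genes had 1 measured probe set each, so their ratios have no second reading. Their median was -0.18, with 21 below equality and 8 lower by 1.2-fold or more. The shares of all measured genes were 45.1% and 14.6%. Those of all genes with 1 measured probe set were not counted.

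**Figure D2:**
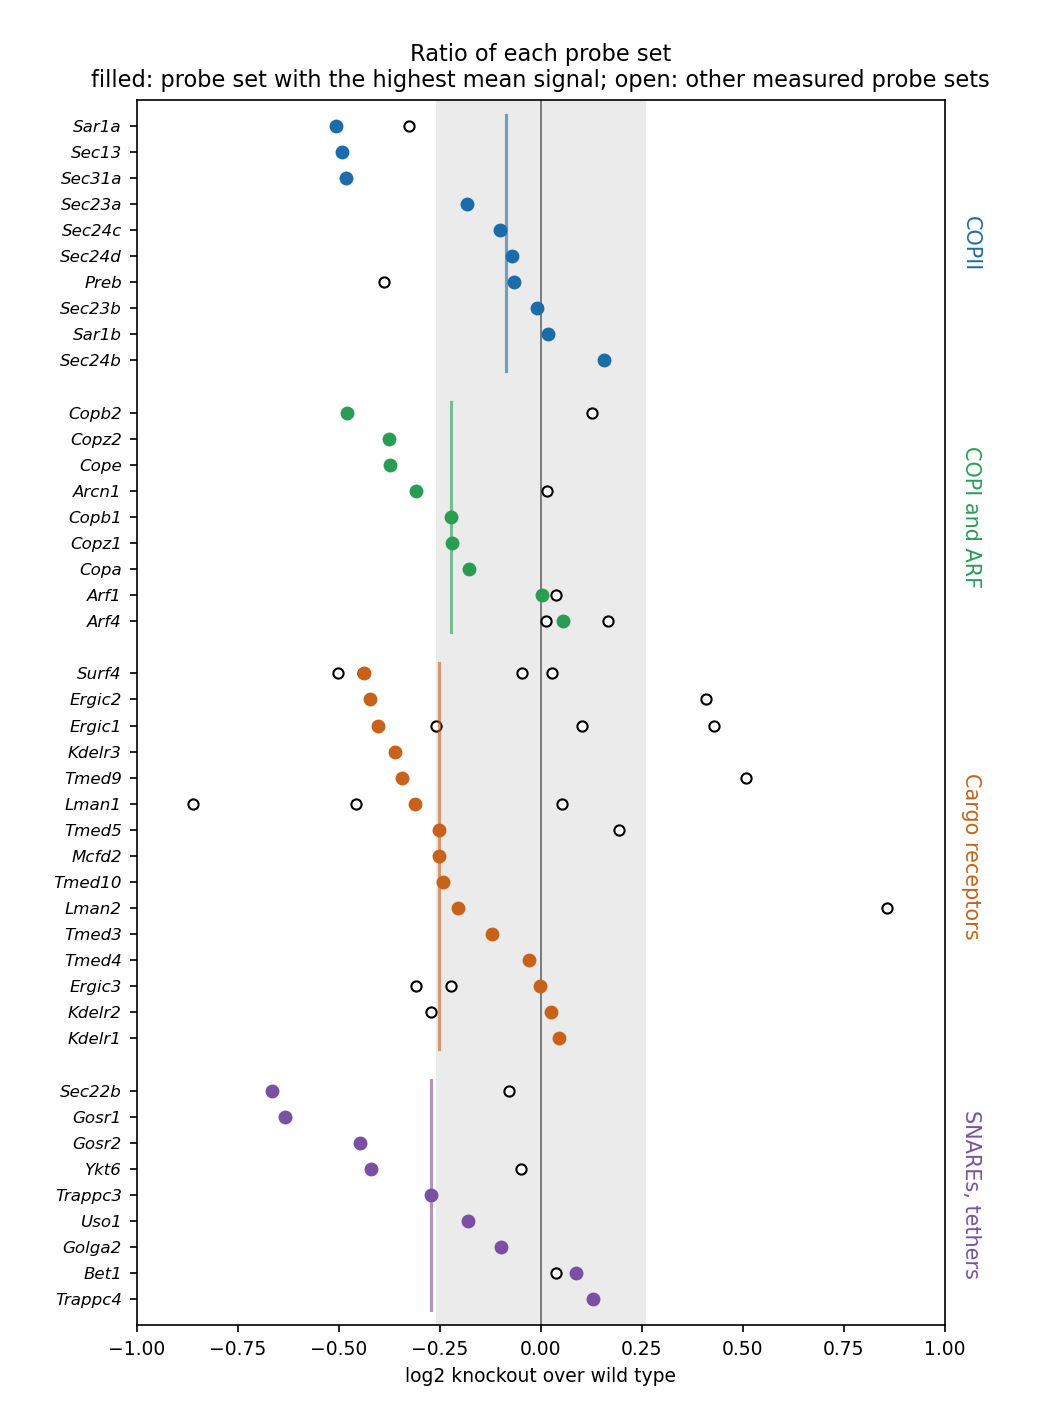
Ratio (log2 knockout over wild type) of every measured probe set of the 43 genes, by class. Filled circles are leading probe sets, open circles the others, coloured lines the class medians and the grey band is 1 probe set SD (0.26) on either side of equality; filled circles lie mostly left of 0, while open circles lie on both sides.

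Within the COPII coat, the GTPase Sar1a and both outer coat genes had lower signals in the knockout library, and the inner coat genes stayed close to equality. Sar1a, which starts coat assembly, went from 1750.4 in the wild type to 1232.6 in the knockout (ratio -0.51, 1.42-fold lower), and from 290.3 to 231.4 on its second probe set (-0.33). Its near relative Sar1b, the isoform linked to chylomicron export, went from 781.0 to 790.5 (0.02). The pair differed by 0.52 on the log2 scale, against 0.36 expected as the SD of a difference between 2 probe sets. Preb, the exchange factor that loads SAR1 with GTP, had a ratio of -0.07 on the leading probe set and of -0.39 (373.3 to 285.4) on the other.

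The outer cage genes were alike. Sec13, which is also a nuclear pore component, went from 619.8 to 440.5 (-0.49, 1.41-fold lower). Sec31a, the long rod of the cage, went from 330.1 to 236.4 (-0.48, 1.40-fold lower). Each has 1 probe set. All 5 measured genes of the inner coat, which binds SAR1 and selects cargo, lay between -0.18 and 0.16. Sec23a, the GTPase activator of SAR1, went from 91.5 to 80.7 and its paralogue Sec23b from 569.2 to 565.1. Among the cargo adaptors, Sec24b went from 110.1 to 122.8, Sec24c from 399.4 to 372.4 and Sec24d from 404.4 to 384.9, and the largest difference between these paralogues was 0.26. Over the 10 measured COPII genes the median was -0.09 (1.06-fold lower), with 8 below equality and 3 (Sar1a, Sec13 and Sec31a) at least 1.2-fold lower.

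All 7 listed coatomer genes were below equality on their leading probe sets, and both ARF genes were level. The gamma subunit genes Copg1 (0.15) and Copg2 (-0.27) are not on the list and are described with the other transport genes below. The beta-prime subunit Copb2 went from 635.6 to 455.6 (-0.48, 1.40-fold lower), but from 381.6 to 416.6 (0.13) on its second probe set. The zeta subunit isoform Copz2 went from 306.0 to 235.8 (-0.38), and the epsilon subunit Cope from 1623.1 to 1253.0 (-0.37). For these 2 genes there was no second probe set. Arcn1, the delta subunit, went from 703.0 to 567.5 (-0.31), and its much dimmer second probe set was level (57.2 to 57.8). Copb1, Copz1 and Copa, the beta, zeta and alpha subunits, had ratios of -0.22, -0.22 and -0.18, all inside the probe set SD. The median of the listed coatomer genes was -0.31, with 4 of 7 at least 1.2-fold lower.

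Arf1, the GTPase that recruits coatomer, was the same in the 2 libraries: 2114.0 and 2116.8 on the leading probe set, and 1405.1 and 1443.2 on the next. Arf4, a related GTPase of the early Golgi, went from 577.0 to 599.5, with ratios of 0.17 and 0.01 on its other measured probe sets. With the ARF genes included the COPI median was -0.22 (1.17-fold lower), and 4 of 9 were at least 1.2-fold lower.

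Cargo receptors had 13 of 15 measured genes below equality and a median of -0.25 (1.19-fold lower), with 6 at least 1.2-fold lower. The KDEL receptors, which return chaperones such as BiP to the ER, had unequal ratios. Kdelr1 went from 782.9 to 807.3 (0.04) and Kdelr2 from 1544.2 to 1571.6 (0.03, with -0.27 on its second probe set). On the leading probe sets Kdelr3 alone of the 3 was below equality, from 215.6 to 168.0 (-0.36, 1.28-fold), on its only probe set. It differed from Kdelr1 by 0.40 and from Kdelr2 by 0.39, slightly more than the 0.36 given above.

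The mannose-binding lectin Lman1 (ERGIC-53), which exports glycoproteins from the ER, was lower on 3 of its 4 probe sets. Its signals went from 773.5 to 623.0 (-0.31), from 381.3 to 277.8 (-0.46) and from 343.5 to 189.3 (-0.86), and the fourth, dimmer probe set went from 93.4 to 96.9. Mcfd2, the calcium-binding partner of LMAN1, went from 731.9 to 615.0 (-0.25). The related lectin Lman2 (VIP36) gave opposite readings, from 229.5 to 199.3 (-0.20) on the leading probe set and from 79.3 to 143.6 (0.86) on the other, so its direction is not settled by these data.

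The p24 proteins (Tmed genes) are small membrane receptors that cycle in both kinds of vesicle. All 5 measured members were below equality on their leading probe sets, with ratios from -0.34 to -0.03. Tmed9 went from 988.8 to 779.0 (-0.34) but from 724.9 to 1030.5 (0.51) on its second probe set. Tmed10 went from 767.3 to 648.9 (-0.24) on the probe set that lists it alone. Of 4 probe sets that list it with the pseudogene Tmed10-ps, 1 was below equality (-0.14) and the others gave 0.90, 0.94 and 1.11. Tmed5 went from 125.2 to 105.2 (-0.25, with 0.19 on the other). Tmed3 had a ratio of -0.12 and Tmed4 of -0.03. Tmed2 has no ratio of its own: 6 probe sets list it together with the gene model Gm10698. All 6 were lower in the knockout library, between -0.69 and -0.18, and signal of the 2 genes cannot be told apart on them.

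Surf4, a receptor that exports many soluble cargoes, was read by 5 probe sets. It went from 713.9 to 527.3 on the first (-0.44, 1.35-fold lower), and the others gave -0.50, -0.44, -0.05 and 0.03. Ergic1, Ergic2 and Ergic3 encode membrane proteins of the ER-Golgi intermediate compartment. Their leading probe sets gave -0.40, -0.42 and -0.00, but none of the 3 was uniform. Ergic1 had 0.10, -0.26 and 0.43 on its other measured probe sets, Ergic2 had 0.41 (81.7 to 108.4), and Ergic3, level on the first, had -0.31 and -0.22.

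The SNAREs held the lowest ratios. Sec22b, the R-SNARE of ER to Golgi vesicles, went from 562.0 to 354.6 (-0.66, 1.58-fold lower), while its second probe set went from 433.0 to 409.9 (-0.08). Gosr1, a Golgi Q-SNARE, went from 88.7 to 57.2 (-0.63, 1.55-fold lower), near the floor. Both ratios exceed 2 probe set SDs (0.51), and no other gene of the 43 did so. This is no test: the share of all measured genes beyond that limit was not counted, and their ratios had an SD of 0.33. Gosr2, the membrin Q-SNARE, went from 574.8 to 421.6 (-0.45), and its second probe set went from 55.9 to a value under the floor. Ykt6, a lipid-anchored R-SNARE, went from 548.0 to 409.5 (-0.42), with -0.05 on the dim second probe set. Bet1, the fifth SNARE, was level at 141.0 and 149.8, and at 80.1 and 82.2 on its second probe set.

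Tethers differed less. Trappc3, a core subunit of the TRAPP complex, went from 476.8 to 394.7 (-0.27), and Trappc4, another core subunit, from 369.2 to 404.1 (0.13). Uso1 (p115), a coiled-coil tether, went from 491.5 to 433.5 (-0.18), and its Golgi partner Golga2 (GM130) from 293.3 to 274.0 (-0.10). SNAREs and tethers together had a median of -0.27 (1.21-fold lower), with 7 of 9 below equality and 5 at least 1.2-fold lower. The class medians thus ran from -0.09 for COPII to -0.27 for SNAREs and tethers, and the differences between classes were not tested.

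Other genes of the same transport steps, from a list of 75 that shares no gene with the 45, were nearer to equality. Of 51 measured, 31 were below equality (45.1% of all measured genes), 6 were at least 1.2-fold lower (14.6%) and 3 at least 1.2-fold higher (21.2%), with a median of -0.07. A further 3 were at the floor in both libraries and 1, Sec16b, was above it in the wild type only. The lowest were Ier3ip1 (558.8 to 400.4, -0.48, with -0.20 on its other probe set), an ER export protein; Cog2 (109.3 to 83.6, -0.39), a subunit of the COG Golgi tether; and Arfgap3 (172.1 to 132.2, -0.38), an activator of ARF GTP hydrolysis. The highest were Pef1 (194.3 to 311.1, 0.68), a calcium-binding partner in the ubiquitination of SEC31; the SNARE Use1 (678.3 to 891.9, 0.40, with 0.52 on its other probe set); and the SNARE Bet1l (154.9 to 198.3, 0.36), whose other probe sets gave -0.12, -0.02 and 0.15. The gamma subunits that complete coatomer, named after their values were seen, had opposite directions: Copg1 went from 304.3 to 338.2 (0.15, with -0.29 on its other probe set) and Copg2 from 116.4 to 96.5 (-0.27).

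**Figure D3:**
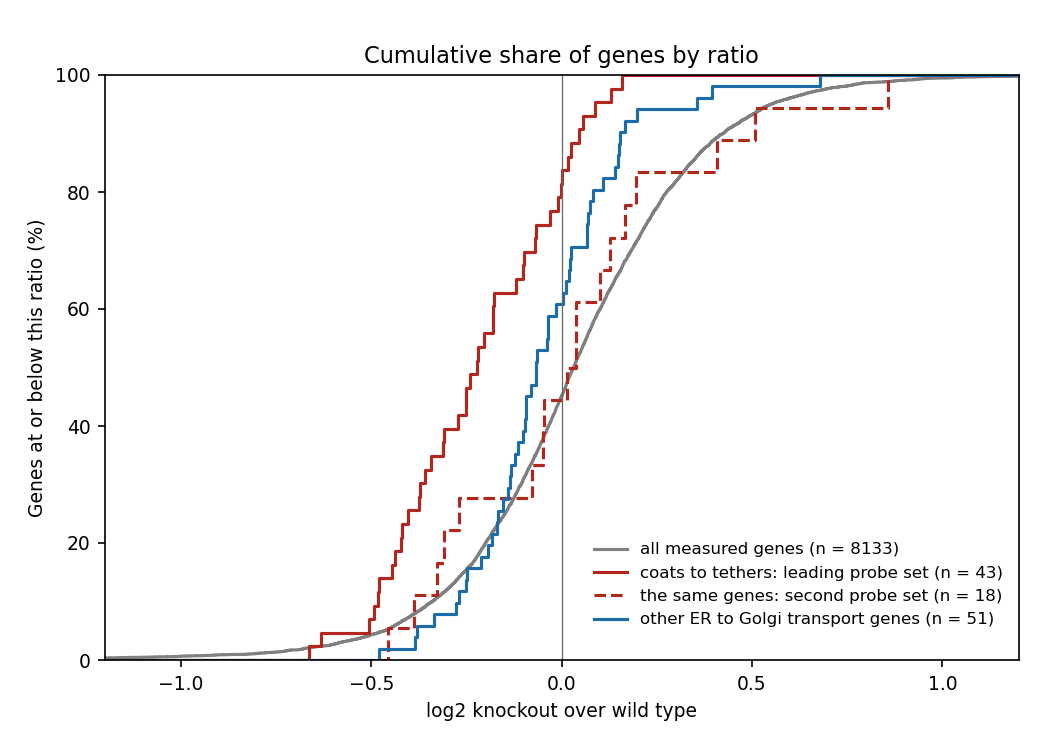
Cumulative share of genes (%) at or below each ratio (log2 knockout over wild type) for all 8133 measured genes, the 43 coat, receptor, SNARE and tether genes on their leading probe sets, the second probe sets of 18 of these genes, and 51 other genes of ER to Golgi transport. The solid red curve lies left of the grey one through most of its range, whereas the dashed red curve runs close to the grey one.

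Promoter sequence was read for the 40 listed genes that have a window in the RefSeq table (GRCm38.p6), from 250 bases before to 50 bases after a start site. The letters TGACGTGG, the unfolded protein response element (UPRE) bound by XBP1 and ATF6, were found on either strand in 6 of 40 genes (15%), against 1.06% of 6606 measured genes of the array with a window, 0.714% of all 27025 genes of the table and 0.676% of all 32851 windows. The 6 stretches are shown because these letters were more frequent among the listed genes than among other promoters, a difference that was not tested. They are read 5′ to 3′ along the strand of the gene, with the matching letters in capitals (reverse complement in Copb1, Copb2 and Kdelr3).
Arf1, chr11:59228203-59228282, minus strand: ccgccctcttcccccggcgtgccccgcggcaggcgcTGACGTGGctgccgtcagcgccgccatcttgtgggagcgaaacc
Copb1, chr7:114254665-114254744, minus strand: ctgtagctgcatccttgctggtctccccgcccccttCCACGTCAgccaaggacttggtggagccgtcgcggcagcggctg
Copb2, chr9:98563688-98563767, plus strand: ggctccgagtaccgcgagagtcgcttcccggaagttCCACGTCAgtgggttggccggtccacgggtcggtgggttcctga
Kdelr3, chr15:79516342-79516421, plus strand: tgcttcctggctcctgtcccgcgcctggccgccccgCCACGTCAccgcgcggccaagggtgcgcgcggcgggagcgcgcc
Sec23a, chr12:59011968-59012047, minus strand: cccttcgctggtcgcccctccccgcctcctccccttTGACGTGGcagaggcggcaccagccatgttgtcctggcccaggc
Sec24d, chr3:123267434-123267513, plus strand: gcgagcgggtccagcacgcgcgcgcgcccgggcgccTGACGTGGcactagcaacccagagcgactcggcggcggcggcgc

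The match begins 84 bases before a start site in Arf1, 30 in Kdelr3, 28 in Copb1, 26 in Sec24d and 7 in Copb2, and 6 bases after it in Sec23a. In Arf1 the same match also lies inside the window of a second start site. Ratios of these 6 genes ran from -0.48 (Copb2) to 0.00 (Arf1) with a median of -0.20, and the 33 measured genes with a window but without these letters had a median of -0.24. Among the 75 other transport genes, 4 of 61 with a window held the letters (6.56%): Gbf1, Scfd1, Sec16b and Stx5a. The ER stress response element ERSE was found in 0 of the 40 genes and in 0.212% of measured genes with a window (0.119% of all windows), and ERSE-II in 0 of the 40 and in 0.106% (0.0365% of all windows). Both of these elements end in CCACG, with which the reverse complement of the UPRE letters begins. The ATF4 composite letters TGATGNAA were found in 1 of the 40 (Kdelr1, 2.5%), close to the 2.62% of measured genes with a window (4.51% of all genes of the table and 3.97% of all windows). A match of letters in a window is a description and does not show binding.

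The libraries differed in other ways too. Eif2ak3 itself went from 117.7 to 58.7 (2.01-fold lower), and a rough gauge of cRNA length, the signal of the 3′ probe set divided by that of the 5′ one, was 1.61 (wild type) and 2.01 (knockout) for beta-actin and 1.01 and 0.867 for Gapdh. All 9 islet endocrine markers on the array were measured, and 5 were below equality. Their summed signals of 38933 and 38897 rest on the very bright hormone and granule genes. The 3 that were at least 1.2-fold lower were the beta cell genes Slc2a2 (860.4 to 464.9, -0.89), Nkx6-1 (488.1 to 326.2, -0.58) and Pdx1 (310.2 to 245.5, -0.34). The other 6 were within 1.2-fold. Among them were the beta cell hormone genes Ins2 (5652.3 to 6163.3, 0.12) and Iapp (6709.7 to 6149.0, -0.13), both inside the probe set SD of 0.26. Of the beta cell genes named here, only Ins2 was above equality. Of 21 acinar markers, 16 were above equality (sums 55558 and 59844), as were 16 of 16 measured of 20 myeloid markers (2068 and 4977), whereas 12 of 12 measured of 15 cell division genes were below (3522 and 1457). For mesenchymal markers 10 of 14 were below equality (14425 and 13491), and for endothelial markers 6 of 10 (4092 and 3863); no marker on these lists had a signal of 0. In bulk islets, fewer cells of a type and less RNA per cell cannot be told apart, and the part of cell composition or RNA quality in the ratios of the transport genes was not tested.

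**Figure D4:**
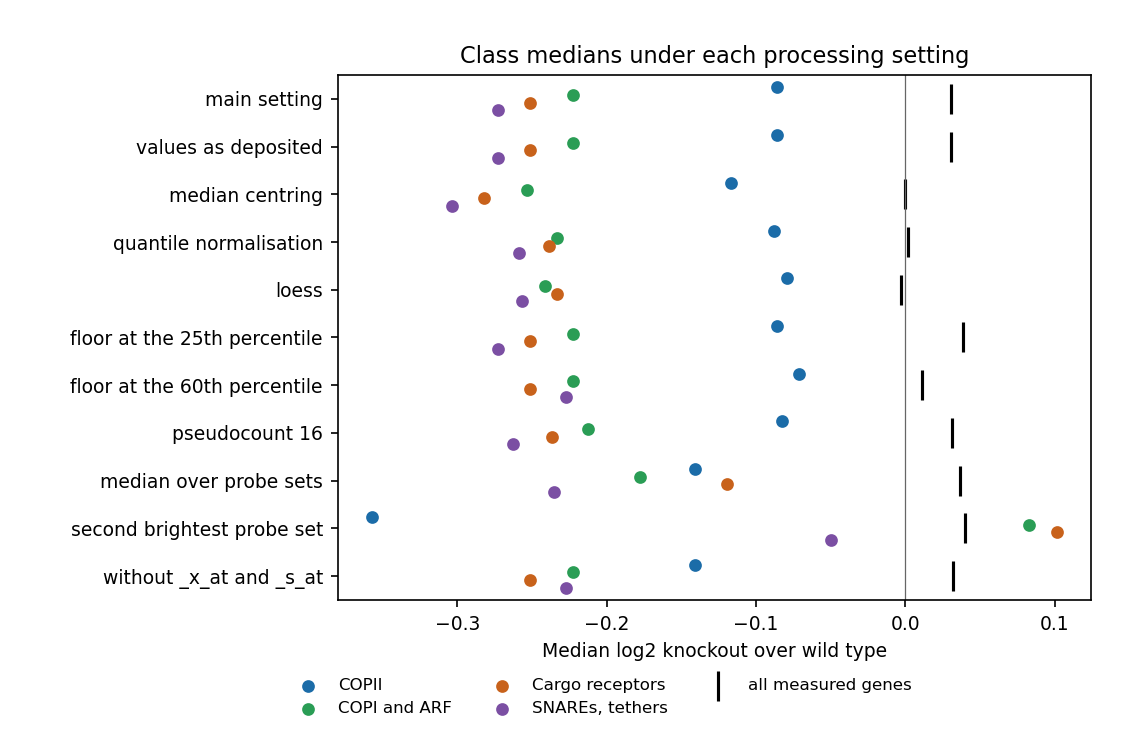
Median ratio (log2 knockout over wild type) of each class of transport genes under the main and each alternative processing setting, with the median of all measured genes as a black bar. The 4 class medians stay below the black bar under every setting except the second brightest probe set, where those of COPI (0.08, 4 genes) and cargo receptors (0.10, 9 genes) lie above it.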

How the data were processed

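The deposited values are linear intensities for 22690 probe sets on 1 array per genotype. The authors' software was GCOS 1.02, per the submitters' processing notes. The sources used here do not name the background correction or the probe summary. Both arrays had a 2% trimmed mean of 150.05, so the knockout array kept a factor of 1.0000. Before log2 was taken, values below 39.8, the 40th percentile over both arrays, were raised to that floor. Names came from the platform annotation, in which 691 probe sets list several genes. These, 1555 unnamed and 64 control probe sets named no gene. Of 12393 genes, 8133 were measured, 693 were above the floor in 1 library and 3567 in neither. All 45 listed genes are named; of the other transport genes, the 3 highest and 3 lowest ratios are.

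The listed genes, classes and limits were chosen with earlier results of these data known. Scripts used Python 3.11.15, pandas 2.3.3, scipy 1.17.1 and statsmodels 0.14.6, and were tested on simulated data. The number of arrays limits the precision. Alternatives were scaling, floor, pseudocount and choice of probe set.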

Additional observations from a re-analysis of the deposited data

Results flagged for a closer look

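Probe sets that list Tmed10 together with the pseudogene Tmed10-ps entered no comparison, and 3 of 4 were brighter in the knockout library. Their ratios were 1.11 (185.0 to 399.9), 0.94 (236.2 to 451.9) and 0.90 (261.5 to 489.4), all 3 on probe sets of the _x_at type, which can bind related transcripts. The fourth went from 1459.2 to 1328.8 (-0.14), near the -0.24 of the probe set that lists Tmed10 alone. Which transcript gave the higher signals was not tested.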

How the results depend on the processing

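Scaling, floor and pseudocount left the picture on the leading probe sets as reported: over these 7 settings 32 to 38 genes were below equality, 17 to 21 were at least 1.2-fold lower, 0 were higher by that much, and the median ranged from -0.25 to -0.21. Of all measured genes, 44.5% to 50.3% were below equality in these settings, 14% to 17.3% at least 1.2-fold lower and 16.2% to 23.8% higher. Not every setting could change the ratios of the 43 genes. The values as deposited nearly repeated the main scaling. A floor at the 25th percentile could not alter genes already above the main floor. The floor at the 60th percentile left 41 of the 43 genes measured, with unchanged ratios. Median centring moved all ratios by the same amount. Only quantile normalisation, loess (scaling that varies with signal) and the pseudocount could change genes unequally. They left 32, 32 and 35 genes below equality and 19, 19 and 17 at least 1.2-fold lower. The choice of probe set mattered more. With the second brightest probe set, available for 18 genes, the median turned to 0.026 and 8 genes were below equality (44.6% of all genes with one). At the 1.2-fold limit, 5 were lower (15.1%) and 3 higher (22.4%). The medians were then 0.083 for COPI (4 genes), 0.10 for cargo receptors (9), -0.36 for COPII (2), -0.05 for SNAREs and tethers (3) and -0.019 for other pathway genes. Of 8 genes that changed sign, Copb2 (0.13), Arcn1 (0.015), Tmed9 (0.51), Ergic1 (0.10) and Ergic2 (0.41) had been at least 1.2-fold lower, and Lman2 (-0.20 to 0.86), Tmed5 (-0.25 to 0.19) and Kdelr2 (0.03 to -0.27) had not. With second probe sets of at least 100, an alternative added after seeing the data, the median was -0.063 and 7 of 12 were below equality (49.0% of all such second probe sets). With the median over probe sets, the median of the 43 genes was -0.18 and that of cargo receptors -0.12. In that setting 34 of 43 were below equality (43.9% of all measured genes), and those at least 1.2-fold lower went from 18 to 12 (12.9%). Then 1 gene (Lman2, 0.33) was at least 1.2-fold higher (20.7% of all measured genes), and Tmed9 reversed to 0.082. With _x_at and _s_at probe sets left out, 34 of 42 were below equality (45% of all measured genes) and 18 at least 1.2-fold lower (14.9%), with a median of -0.23. Quantile normalisation moved the median of the other pathway genes from -0.07 to -0.030. The cause of the disagreement between probe sets was not tested. No paired analysis was possible because each genotype has 1 array.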
